A study of Homo sapiens with 6 samples.

Results

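A group of 10 inflammatory ligands was followed in AALE, a human cell line derived from basal cells of the bronchial epithelium and transformed with SV40 and hTERT (telomerase). The group held the neutrophil chemokines CXCL1, CXCL2, CXCL3 and CXCL8, the chemokine CCL20, the interleukin-1 (IL-1) family genes IL1A, IL1B, IL1RN and IL36G, and the epithelial cytokine TSLP. They were chosen by gene symbol, and all 10 were found among the 57736 genes of the deposited table of expected counts. The cells carried either a lentiviral NRG1 overexpression vector (3 libraries; NRG1 encodes neuregulin, a ligand of ERBB receptors), or a lentiviral control vector (3 libraries). Both groups were stable pools of selected cells, not single clones, were kept in small airway epithelial growth medium and share the SV40 and telomerase background. The labels do not say which promoter drives NRG1 or whether each library had its own culture. The p-values therefore rest on a spread among libraries that may be technical only.

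Airway epithelial cells release these ligands on injury or infection. CXCL1, CXCL2, CXCL3 and CXCL8 attract neutrophils through CXCR1 and CXCR2, and CCL20 attracts cells that carry CCR6. IL-1α and IL-1β, the products of IL1A and IL1B, signal through IL1R1 and MyD88 to NF-κB and AP-1, transcription factors that switch on chemokine genes in turn, while IL1RN encodes a receptor antagonist that blocks IL1R1. IL36G encodes a related agonist of the receptor IL1RL2, and TSLP is an alarm cytokine that acts on dendritic and other immune cells.

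The identifiers were ENSG00000163739 for CXCL1, ENSG00000081041 for CXCL2, ENSG00000163734 for CXCL3 and ENSG00000169429 for CXCL8, all on chromosome 4. In the RefSeq annotation of GRCh38.p14, CXCL3 and CXCL2 lay next to each other with 0 protein-coding genes between them, and 3 such genes separated CXCL1 from CXCL3. On chromosome 2 lay IL1A (ENSG00000115008), its neighbour IL1B (ENSG00000125538), IL36G (ENSG00000136688), IL1RN (ENSG00000136689) and, far away, CCL20 (ENSG00000115009). TSLP (ENSG00000145777) lay on chromosome 5.

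The 150 bases before the annotated start of each neutrophil chemokine gene are shown because all 4 genes were highest in the same library, control 3, as described below. They come from RefSeq (GRCh38.p14) and run 5′ to 3′ on the gene's strand. Capitals mark the letters GGAATTTCC, a core sequence bound by NF-κB, and TGACTCA, a sequence bound by AP-1.
CXCL1, chr4:73869243-73869392, plus strand: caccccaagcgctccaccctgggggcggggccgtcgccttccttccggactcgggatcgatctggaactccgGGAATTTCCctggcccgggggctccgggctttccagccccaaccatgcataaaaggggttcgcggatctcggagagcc
CXCL2, chr4:74099196-74099345, minus strand: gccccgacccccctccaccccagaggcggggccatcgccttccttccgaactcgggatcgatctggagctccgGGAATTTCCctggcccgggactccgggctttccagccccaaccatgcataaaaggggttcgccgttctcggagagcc
CXCL3, chr4:74038690-74038839, minus strand: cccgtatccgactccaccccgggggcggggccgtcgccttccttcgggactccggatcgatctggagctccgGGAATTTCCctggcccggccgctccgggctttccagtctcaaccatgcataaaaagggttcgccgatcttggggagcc
CXCL8, chr4:73740419-73740568, plus strand: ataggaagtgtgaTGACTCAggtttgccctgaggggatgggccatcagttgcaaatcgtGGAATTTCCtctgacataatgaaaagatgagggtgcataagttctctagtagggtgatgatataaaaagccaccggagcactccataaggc

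All 10 genes had at least 1 promoter entry. The stretch of CXCL1 was 88.7% identical to that of CXCL2 and 88.1% identical to that of CXCL3, against 43.7% for CXCL8. GGAATTTCC began 78 bases before the start in CXCL1 and CXCL3, 77 in CXCL2 and 91 in CXCL8. Searched on both strands in the 250 bases before each start, these letters stood in 0.413% of 35116 promoter windows. TSLP held them at 1 of its 3 annotated starts, and the windows of CCL20, IL1A, IL1B, IL1RN and IL36G held none. TGACTCA, found in 4.2% of the windows, began 137 bases before the start of CXCL8 and also stood in windows of IL1A and IL1RN. A match describes the letters and is not evidence of binding.

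The libraries differed in ways that touched these genes. Total expected counts ran from 8612234 to 13207620. NRG1 itself lay at 6647, 3854 and 3781 CPM in NRG1 1 to 3 (counts scaled to library size with the TMM method, the trimmed mean of M-values). In control libraries it lay at 7.87 to 12.3 CPM, so the labels held. The library control 3 stood apart on the first principal component (44.5% of the variance, score 79.3, against 4.2 and -0.7 in the other controls). On that component NRG1 1 scored -0.9, near control 1 and control 2, while NRG1 2 and NRG1 3 scored -41.3 and -40.5. NRG1 1 stood apart on the second (27.3%, score -65.4, against 23.0 and 22.6 in the other NRG1 libraries). NRG1 2 and NRG1 3 were by far the most alike pair within a group. The chi-square distance of their counts, per degree of freedom, was 2.65. It was 42.1 and 36.9 between NRG1 1 and these libraries, and 18.6 to 64.9 among the controls. Agreement of NRG1 2 with NRG1 3 may therefore not be that of separate cultures. The 10 basal cell markers, mainly KRT5 and KRT17, summed to 6333 to 7884 CPM in NRG1 libraries and to 9360 to 13433 CPM in control libraries. Single markers went different ways. KRT17 (1368 to 1483 CPM in NRG1, 2596 to 3140 CPM in control) and KRT14 were lower in every NRG1 library. EPCAM was higher in every NRG1 library (111 to 147 CPM, against 66.7 to 88.2 CPM in control). TP63 and ITGA6 overlapped. KRT15 was at 13.4, 80.4 and 79.4 CPM in NRG1 1 to 3 and 7.49 to 16.2 CPM in control. NGFR reached 302 CPM in control 3. Of 10 leukocyte markers, CD3E and TYROBP had 0 counts in every library, PTPRC had at most 2, and 6 stayed under 1 CPM throughout; the list summed to 16.3 to 36.3 CPM in NRG1 and to 27.2 to 39.1 CPM in control, most of it CD68, CSF1R and CD14. Of 4 endothelial markers, CDH5 had 0 counts, and the list summed to 2.24 to 4.08 CPM in NRG1 and to 0.849 to 2.02 CPM in control. Of 7 fibroblast markers, 3 stayed under 1 CPM throughout, and the list, mainly COL1A1 and DCN, summed to 20.1 to 28.1 CPM in NRG1 and to 43.1 to 67.9 CPM in control. The part of these markers in the results was not tested. In bulk RNA, fewer cells that make a transcript and less of it per cell cannot be told apart.

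None of the 10 ligands passed the test between NRG1 and control cells. With edgeR's quasi-likelihood test, and p-values adjusted by Benjamini-Hochberg across 15421 genes at a threshold of 0.05, 0 of the 8 members with enough counts to test were called, against 0.00648% of all genes (NRG1 alone). Their adjusted p ran from 0.483 to 0.990. At an unadjusted p under 0.05 there were also 0 of 8, against 11.8% of all genes, and DESeq2 called 0 of 8, against 1.36%. In none of the 10 did the 3 NRG1 libraries all lie above or all below the 3 controls, which 19.6% of the tested genes did. Among the 8, 5 had a log2 fold change below 0 and 3 above, with a median of -0.15 (0 for all tested genes). On counts simulated gene by gene with the fitted spread, edgeR found a 2-fold change in 11 of 100 altered genes and a 4-fold change in 73 of 100. Altered genes were picked at random from all tested genes, and no library was shifted as a whole. These rates are therefore not those of the 8 members, in which changes of such sizes could have been missed.

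**Figure D1:**
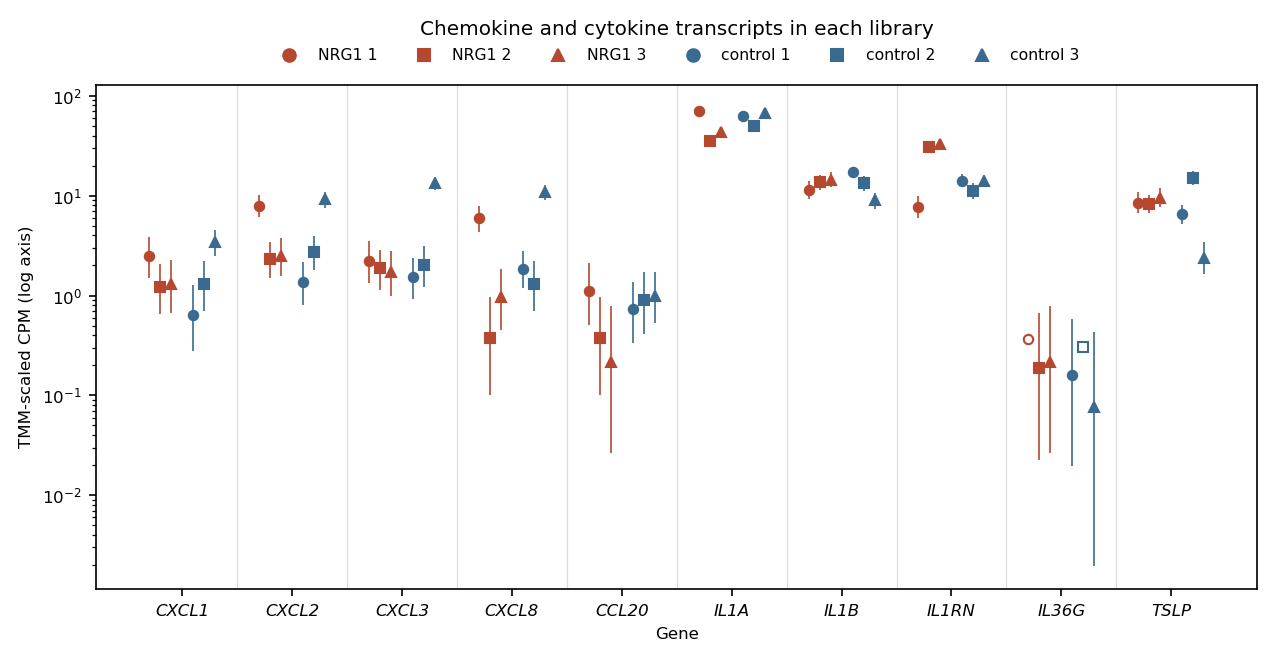
TMM-scaled CPM (log axis) of the 10 genes in each library, NRG1 libraries in red left of control libraries in blue. Bars are 95% Poisson intervals, which cover counting error only, and open symbols stand for 0 counts, drawn at the level of 3 counts. The 4 CXCL genes are highest in control 3, and IL1RN is highest in NRG1 2 and NRG1 3.

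Neutrophil chemokines were low in most libraries and high in one or both of the libraries that stood apart. CXCL8 (interleukin-8) lay at 5.93, 0.374 and 0.977 CPM in NRG1 1 to 3 and at 1.85, 1.31 and 10.8 CPM in control 1 to 3. NRG1 1 and control 3 were thus far above the rest of their groups, and the groups overlapped. The low end rested on few reads: 4 counts in NRG1 2 gave a 95% Poisson interval of 0.102 to 0.957 CPM, and 140 in control 3 one of 9.09 to 12.8 CPM.

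CXCL2 (GROβ) was at 7.91, 2.34 and 2.5 CPM in NRG1 libraries and at 1.37, 2.72 and 9.19 CPM in control libraries. CXCL1 (GROα) was at 2.47, 1.21 and 1.3 CPM in NRG1, against 0.645, 1.31 and 3.40 CPM in control. Both genes had their highest levels in control 3 and their next highest in NRG1 1, as CXCL8 did. CXCL3 (GROγ) differed: it lay at 2.23, 1.87 and 1.74 CPM in NRG1, close together, and at 1.53, 2.02 and 13.3 CPM in control, so that control 3 alone was high.

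The fitted log2 fold changes were -1.57 (SE 0.85, 95% interval -3.51 to 0.38) for CXCL3 and -1.08 (SE 1.02, -3.41 to 1.25) for CXCL8. They were -0.17 (SE 0.63, -1.62 to 1.29) for CXCL1 and -0.13 (SE 0.74, -1.82 to 1.56) for CXCL2. The adjusted p of edgeR was 0.483 for CXCL3, 0.675 for CXCL8, 0.933 for CXCL1 and 0.956 for CXCL2. Without control 3 all 4 turned to 0.13, 0.49, 0.76 and 1.03 for CXCL3, CXCL8, CXCL1 and CXCL2, with an adjusted p of 0.941, 0.915, 0.720 and 0.685. Without NRG1 1 the value for CXCL8 was -2.85 (adjusted p = 0.305) and that for CXCL2 -0.90 (adjusted p = 0.578). Without both libraries, a setting chosen after seeing the data, CXCL8 kept a value below 0 (-1.28, adjusted p = 0.190) and CXCL1, CXCL2 and CXCL3 lay at 0.40, 0.27 and 0.04.

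**Figure D2:**
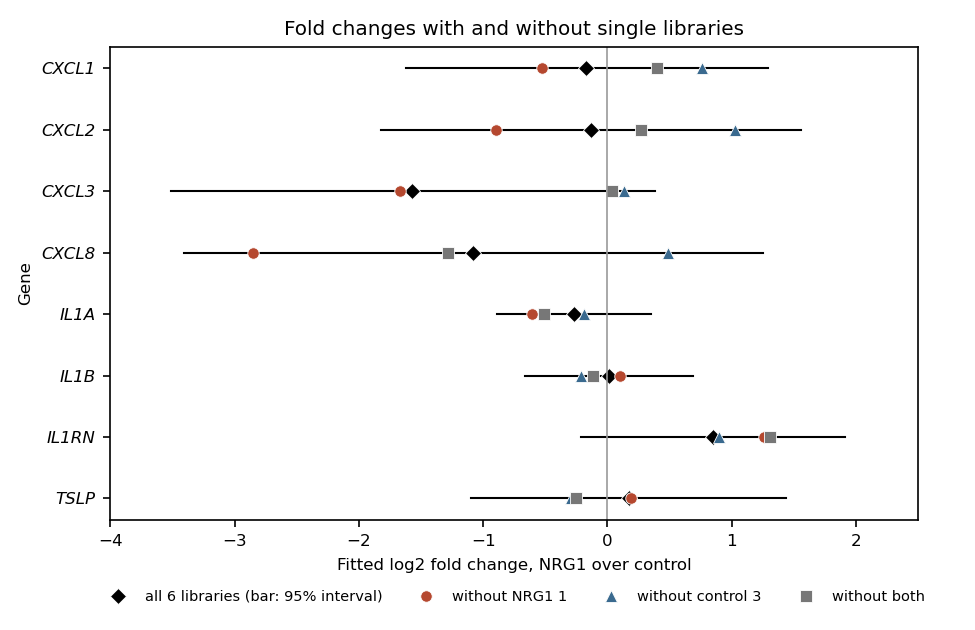
Fitted log2 fold change of NRG1 over control (horizontal axis) for the 8 tested genes, with all 6 libraries (diamonds, with 95% intervals) and with NRG1 1, control 3 or both left out. The 4 CXCL genes cross 0 when control 3 is left out, while IL1RN stays above 0 in every setting drawn.

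Control 3 exceeded the higher of the other controls 2.59 times in CXCL1, 3.37 times in CXCL2, 5.83 times in CXCL8 and 6.58 times in CXCL3. A lead of at least 2-fold was seen in 4 of 8 tested members and in 4.75% of all tested genes. NRG1 1 exceeded the higher of the other NRG1 libraries 6.07 times in CXCL8, 3.17 times in CXCL2, 1.90 times in CXCL1 and 1.19 times in CXCL3. That lead reached 2-fold in 2 of 8, against 3.34% of all tested genes. These are descriptions of single libraries, with no test.

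The mix of CXCL2 and CXCL3 also differed between these libraries, on a measure that library scaling does not touch. CXCL3 made up 22.0% of the summed counts of the pair in NRG1 1 (95% Wilson interval 14.4 to 32.1%, 82 counts), and 44.4% and 41.0% in NRG1 2 and 3. In control 1 to 3 it made up 52.8%, 42.6% and 59.1%, the last with an interval of 53.4 to 64.6% on 291 counts. The intervals of NRG1 1 and control 3 did not overlap, although the sum of the 4 genes was raised in both: it was 18.5, 5.79 and 6.51 CPM in NRG1 and 5.40, 7.37 and 36.7 CPM in control. CXCL1, CXCL2 and CXCL3 are close copies, and their expected counts were not whole numbers in 4, 6 and 6 of the 6 libraries, so reads were shared among genes and this split is uncertain. CXCL8 had whole counts in every library.

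CCL20, the ligand of CCR6, was near the limit of detection and was not tested. It had 9, 4 and 2 counts in NRG1 libraries (1.11, 0.374 and 0.217 CPM) and 9, 9 and 13 counts in control libraries (0.725, 0.908 and 1.00 CPM). NRG1 2 and NRG1 3 were lowest, yet the Poisson interval of NRG1 2, 0.102 to 0.957 CPM, overlapped that of each control. A two-sided exact permutation test of log2(CPM + 1) gave p = 0.4, where 3 against 3 libraries allow no less than 0.1.

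IL1A was the most abundant of the 10 genes. It lay at 70.5, 35.6 and 43.0 CPM in NRG1 1 to 3 and at 62.3, 49.8 and 67.4 CPM in control 1 to 3. NRG1 2 and NRG1 3 lay under every control and NRG1 1 lay over every control, so the groups overlapped. The log2 fold change was -0.27 (SE 0.27, 95% interval -0.89 to 0.35, adjusted p = 0.690 in edgeR). Without NRG1 1 it was -0.61 (adjusted p = 0.205), and without both libraries that stood apart -0.51 (adjusted p = 0.0816). Expected counts of IL1A were not whole in 5 of 6 libraries.

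IL1B was at 11.4, 13.6 and 14.5 CPM in NRG1 libraries and at 17.1, 13.3 and 8.96 CPM in control libraries. The NRG1 values all lay inside the control range, and the log2 fold change was 0.01 (SE 0.29, -0.66 to 0.69, adjusted p = 0.990 in edgeR). Control 3, the highest library for the CXCL genes, was the lowest for IL1B. Across the 6 libraries the log2 levels of IL1B and CXCL1 had a Pearson r of -0.98, and those of CXCL1 and CXCL2 one of 0.98. These values, the lowest and the highest among pairs of tested members, describe 6 points in 2 groups. The genes of a pair share the depth of each library, and CXCL1 and CXCL2 may also share reads.

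IL1RN, the receptor antagonist, had the largest positive fold change of the 8. Its level was 7.79, 30.4 and 32.7 CPM in NRG1 1 to 3 and 14.1, 11.2 and 14.1 CPM in control 1 to 3. NRG1 2 and NRG1 3 lay above every control and NRG1 1 below every control, at 0.256 times the lower of the other NRG1 libraries. As NRG1 2 and NRG1 3 were the most alike pair within a group, their agreement may not be independent. A level of at most 0.5 times both other NRG1 libraries was seen in 1 of 8 tested members, IL1RN, and in 9.69% of all tested genes. The means were 23.6 ± 13.8 CPM in NRG1 and 13.1 ± 1.66 CPM in control (SD, n = 3 each). The log2 fold change was 0.85 (SE 0.46, 95% interval -0.21 to 1.91), with an adjusted p of 0.483 in edgeR.

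Without NRG1 1 the log2 fold change of IL1RN was 1.26 (adjusted p = 0.0666 in edgeR), and 0 of 8 members were called, against 0.24% of all tested genes. Without NRG1 1 and control 3 it rose by 1.31 (SE 0.17, adjusted p = 0.00644 in edgeR), the 1 member of 8 called in that setting, which called 9.82% of all tested genes, 5.04% as higher in NRG1. Leaving out libraries for their distance lowers the spread, so p-values of that setting are too small by an unknown amount. In both fits without NRG1 1, the NRG1 group was NRG1 2 and NRG1 3, the most alike pair. Without control 3 alone the log2 fold change was 0.90 (adjusted p = 0.678 in edgeR).

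Antagonist and agonist transcripts were also set against each other within each library, where scaling plays no part. IL1RN made up 8.69%, 38.1% and 36.2% of the counts of IL1RN, IL1A and IL1B in NRG1 1 to 3, and 15.1%, 15.1% and 15.5% in control 1 to 3. The 95% Wilson intervals were 6.85 to 11% in NRG1 1, 34.9 to 41.5% in NRG1 2 and 33.0 to 39.5% in NRG1 3. Those of the controls lay between 12.7 and 17.8%. The 3 controls thus agreed within counting error, control 3 included, whereas the NRG1 libraries lay on both sides of them. As a ratio, IL1RN per IL1A plus IL1B was 0.427 ± 0.288 in NRG1 and 0.180 ± 0.00346 in control (SD, n = 3 each). The forms of IL1RN that are secreted or kept in the cell were not told apart by counts per gene.

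**Figure D3:**
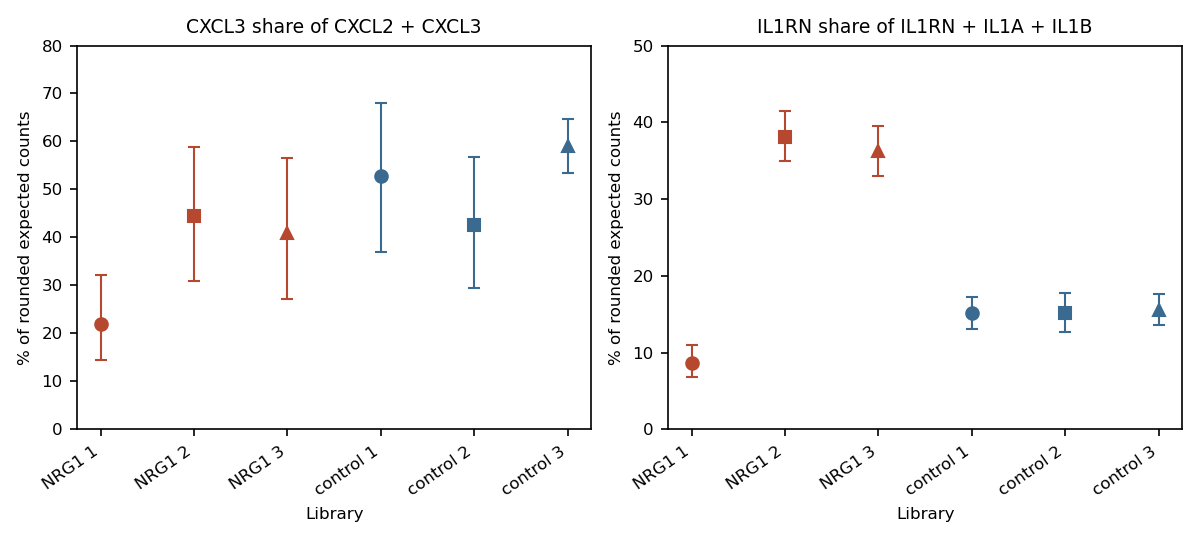
Share (%) of CXCL3 in the counts of CXCL2 and CXCL3 (left) and of IL1RN in the counts of IL1RN, IL1A and IL1B (right) in each library, with 95% Wilson intervals that cover counting error only. NRG1 1 is lowest in both panels, and the 3 controls lie between 15.1% and 15.5% on the right.

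IL36G was all but absent. It had 0, 2 and 2 counts in NRG1 libraries and 2, 0 and 1 in control libraries. A count of 0 allows up to 0.371 CPM in NRG1 1 and 0.303 CPM in control 2 (3 counts), so no difference was detectable at this depth. A two-sided exact permutation test of log2(CPM + 1) gave p = 0.6.

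TSLP varied among the controls more than among the NRG1 libraries. It was at 8.53, 8.32 and 9.55 CPM in NRG1 1 to 3 and at 6.53, 15.0 and 2.39 CPM in control 1 to 3. The NRG1 values lay close together, between control 1 and control 2, and control 3 was lowest. The means were 8.80 ± 0.661 CPM in NRG1 and 7.99 ± 6.45 CPM in control (SD, n = 3 each). The log2 fold change was 0.17 (SE 0.55, -1.10 to 1.44, adjusted p = 0.919 in edgeR), -0.29 without control 3 (adjusted p = 0.854) and 0.98 without control 2 (adjusted p = 0.424). Without strand information, reads of an annotated antisense gene could have counted for TSLP. That gene had 0 counts in every library, which would also hold if its reads had been given to TSLP. This was not tested.

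Levels of different genes were compared only as CPM per kilobase of exon. IL1A had 23.4 CPM per kb in NRG1 and 28.2 in control on average, and its lowest library, at 16.8, exceeded the highest of any other member, IL1RN in NRG1 3 at 10. IL1RN had means of 7.25 in NRG1 and 4.03 in control, and IL1B means of 4.26 in NRG1 and 4.24 in control. IL1RN was thus the higher of the pair in NRG1 and IL1B in control, and their ranges overlapped in both groups. CXCL2 averaged 2.83 CPM per kb in NRG1 and 2.95 in control, TSLP 2.05 and 1.87, and CXCL1 1.28 and 1.38. CXCL8 averaged 1.07 in NRG1 and 2.05 in control, and CXCL3 0.876 and 2.53. Ranges were compared over libraries, so the order of genes within each library was not examined. In control libraries the ranges of these 5 genes all overlapped. In NRG1 libraries CXCL3, at 0.783 to 1 CPM per kb, lay below CXCL2 at 1.56 to 5.27 and TSLP at 1.94 to 2.23. CXCL1, at 0.937 to 1.91, lay just below TSLP there, and the other pairs overlapped. CCL20 averaged 0.356 CPM per kb in NRG1 and 0.552 in control, and IL36G 0.0976 and 0.0576.

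The genes with a profile most like the mean of the 4 CXCL genes were NEK7, SCAF8, FOXN2, CWC22 and PHF3, with a Pearson r of 0.991 to 0.994 over 6 libraries. Of 11836 candidate genes, 4.03% had an r over 0.9. NEK7, for example, was at 100, 63.3 and 67.5 CPM in NRG1 1 to 3 and at 63.9, 68.8 and 129 CPM in control 1 to 3. That NRG1 1 and control 3 were high in it follows from how these genes were chosen.

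Among other chemokines, groups did not overlap in 2 of the 4 tested genes, against 19.6% of all tested genes. These 2 were named for their low p, and their levels were low. CCL28, a mucosal chemokine of epithelium, was at 2.97, 5.51 and 5.21 CPM in NRG1, against 1.13, 1.01 and 0.309 CPM in control, with every NRG1 library above every control. CX3CL1 (fractalkine) was at 1.61, 1.12 and 0.868 CPM in NRG1, against 5.40, 8.48 and 3.32 CPM in control, with every NRG1 library below. Their log2 fold changes were 2.51 (SE 0.49) and -2.24 (SE 0.49), with an adjusted p of 0.213 and 0.258 in edgeR. DESeq2, which called 1.36% of all tested genes, called both, with an adjusted p of 0.00709 for CCL28 and 0.00787 for CX3CL1. CXCL16, a transmembrane chemokine, was at 32.6 ± 10.4 CPM in NRG1 and 20.1 ± 4.35 CPM in control (SD, n = 3 each), with an adjusted p of 0.412 in edgeR. Of the 14 such genes that were counted, 4 could be tested and 0 passed edgeR. An unadjusted p under 0.05 was reached by 2 of the 4 that were higher and by 1 that was lower in NRG1, against 11.8% of all tested genes. CXCL5, a close relative of the neutrophil chemokines, had 32.0 counts over the 3 NRG1 libraries and 9.1 over the 3 controls and was not tested.

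Of the other IL-1 family ligands and alarmins, 2 of 9 were tested and 0 passed. IL18 was at 39.3 ± 3.64 CPM in NRG1 and 32.7 ± 3.79 CPM in control, and HMGB1, a nuclear protein released from dying cells, at 416 ± 160 and 352 ± 60.0 CPM (SD, n = 3 each); edgeR gave them an adjusted p of 0.577 and 0.727. IL33 had 2 counts over the NRG1 libraries and 0 over the controls, and IL36A, IL36B, IL1F10 and IL25 had 0 in all 6.

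Receptors for several of the ligands were scarce. CXCR1 had 0 counts over the NRG1 libraries and 6.1 over the controls, CXCR2 had 30 and 8.9, CCR6 had 2 and 21.2, and CRLF2, the TSLP receptor chain, had 0 in both. These sums were not scaled to library size, and the genes were not tested. Most counts of CCR6 and CXCR1 in the controls came from control 3. In control 1 to 3, CCR6 was at 0, 0.202 and 1.47 CPM and CXCR1 at 0.0806, 0 and 0.386 CPM. CXCR2 was at 1.24, 1.31 and 0.651 CPM in NRG1, against 0.484, 0.202 and 0.0772 CPM in control. Of the 2 tested chemokine receptors of 7, ACKR3, a scavenging receptor, was at 4.62 ± 0.820 CPM in NRG1 and 7.95 ± 3.21 CPM in control, and CXCR4 at 1.74 ± 0.533 and 2.21 ± 0.363 CPM (SD, n = 3 each), with an adjusted p of 0.442 and 0.727 in edgeR. IL1R1, the receptor of IL-1, was at 9.52, 10.8 and 13.8 CPM in NRG1, against 11.8, 9.39 and 23.7 CPM in control, with control 3 highest.

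IL1RL2, the IL-36 receptor, was at 1.48, 2.52 and 3.69 CPM in NRG1, against 1.21, 1.01 and 1.00 CPM in control, with every NRG1 library above every control (log2 fold change 1.26, SE 0.44, adjusted p = 0.369 in edgeR). IL1RAP, the shared co-receptor, was at 48.7 ± 10.7 CPM in NRG1 and 67.7 ± 20.3 CPM in control (SD, n = 3 each; adjusted p = 0.478 in edgeR). IL18BP, a secreted IL-18 inhibitor, was at 6.06, 20.9 and 22.1 CPM in NRG1, against 12.9, 11.9 and 8.03 CPM in control, so that, as for IL1RN, NRG1 1 lay below every control and NRG1 2 and 3 above (adjusted p = 0.605 in edgeR). Of 7 receptor and decoy genes tested of 11, 0 passed and 1 was higher at an unadjusted p under 0.05, against 11.8% of all tested genes in either direction. Groups did not overlap in 1 of the 7, IL1RL2, against 19.6% of all tested genes.

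Among 16 genes of IL-1 processing and the inflammasome, 11 were tested and 0 passed edgeR. CAPN1, a calpain protease of the kind that cuts the IL-1α precursor, was at 294, 434 and 373 CPM in NRG1, against 246, 208 and 175 CPM in control. Every NRG1 library lay above every control (log2 fold change 0.81, SE 0.20, adjusted p = 0.298 in edgeR and 0.0442 in DESeq2). NLRP1, an inflammasome sensor of epithelium, was at 45.0 ± 11.5 CPM in NRG1 and 81.4 ± 26.6 CPM in control, and the pore-forming GSDME at 63.8 ± 2.65 and 78.2 ± 8.96 CPM (SD, n = 3 each), with an adjusted p of 0.358 and 0.483 in edgeR. CASP1, which cuts the IL-1β precursor, was at 16.8, 14.7 and 16.5 CPM in NRG1, against 14.6, 15.4 and 9.88 CPM in control. An unadjusted p under 0.05 was reached by 2 of the 11, CAPN1, which was higher, and NLRP1, which was lower, against 11.8% of all tested genes. Groups did not overlap in 1 of the 11 that was higher in NRG1, CAPN1, and in 2 that were lower, NLRP1 and GSDME. Of all tested genes, 19.6% had groups that did not overlap.

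Of 18 tested MyD88 and IKK signalling genes, 0 passed edgeR and 1 was lower at an unadjusted p under 0.05, which 11.8% of all tested genes reached. Their median log2 fold change was -0.07, against 0 for all tested genes. Groups did not overlap in 3 of the 18, all lower in NRG1, against 19.6% of all tested genes. IRAK2, a kinase of the IL-1 receptor complex, was at 4.82, 8.41 and 7.71 CPM in NRG1, against 9.35, 11 and 39.5 CPM in control, with control 3 far above the rest (adjusted p = 0.390 in edgeR). IRAK4 was at 26.1 ± 4.44 CPM in NRG1 and 39.0 ± 11.4 CPM in control, and IRAK3, an inhibitor of the pathway, at 23.7 ± 4.18 and 14.3 ± 6.66 CPM (SD, n = 3 each), with an adjusted p of 0.427 and 0.453 in edgeR.

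NF-κB subunits, feedback genes and other targets leaned lower: 17 of 18 tested genes had a log2 fold change below 0 (median -0.42, against 0 for all tested genes), and 0 passed edgeR. RELB, a subunit that NF-κB induces, was at 9.64, 11.8 and 8.79 CPM in NRG1, against 13.1, 28.1 and 51.9 CPM in control, with every NRG1 library below every control (log2 fold change -1.62, SE 0.46, adjusted p = 0.332 in edgeR and 0.0413 in DESeq2). TNFAIP3 (A20), a feedback inhibitor, was at 16.9, 20.3 and 20.5 CPM in NRG1 libraries and at 23.4, 39.1 and 97.0 CPM in control libraries, and NFKB2 at 52.3, 44.5 and 42.9 and at 53.3, 87.8 and 167 CPM (adjusted p = 0.358 for both in edgeR). Groups did not overlap in these 3 genes, which were named for their low p, and control 3 was highest in each. Over the list, groups did not overlap in 5 genes that were lower and 1 that was higher in NRG1 of 18, against 19.6% of all tested genes. An unadjusted p under 0.05 was reached by 6 genes of the 18 that were lower in NRG1 and by 1 that was higher, against 11.8% of all tested genes in either direction. Relative to the controls, taken over the list, the median log2 distance from the mean of the controls was -0.35, -0.49 and -0.48 in NRG1 1 to 3 and -0.35, -0.07 and 0.44 in control 1 to 3. Without control 3 and NRG1 1, a setting chosen after seeing the data, the fold changes of the 3 named genes were smaller. They were -0.98 for RELB, -0.61 for TNFAIP3 and -0.69 for NFKB2, with an adjusted p of 0.123, 0.15 and 0.0898 in edgeR. That setting called 1 gene of the list as higher and 1 as lower, against 9.82% of all tested genes.

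Among 11 RNA-binding regulators, proteins that control the decay of cytokine messages, 0 passed edgeR, 1 (HNRNPD) was higher at an unadjusted p under 0.05 (11.8% of all tested genes) and the median log2 fold change was -0.37. HNRNPD (AUF1) was at 241 ± 43.7 CPM in NRG1 and 165 ± 46.3 CPM in control, ARID5A at 8.34 ± 0.744 and 12 ± 3.07 CPM, and ZC3H12A (Regnase-1) at 22.6 ± 1.37 and 29.2 ± 10.5 CPM (SD, n = 3 each), with an adjusted p of 0.413, 0.478 and 0.595 in edgeR. ZFP36 (tristetraprolin), which targets AU-rich messages, was highest in control 3 and next highest in NRG1 1, as CXCL1, CXCL2 and CXCL8 were: it was at 63.9, 39.3 and 32.2 CPM in NRG1, against 26.5, 36.7 and 158 CPM in control. That gene was chosen after its values were seen, as were IL1R1, CASP1, CXCL5 and the untested receptors and IL-1 family ligands named above.

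**Figure D4:**
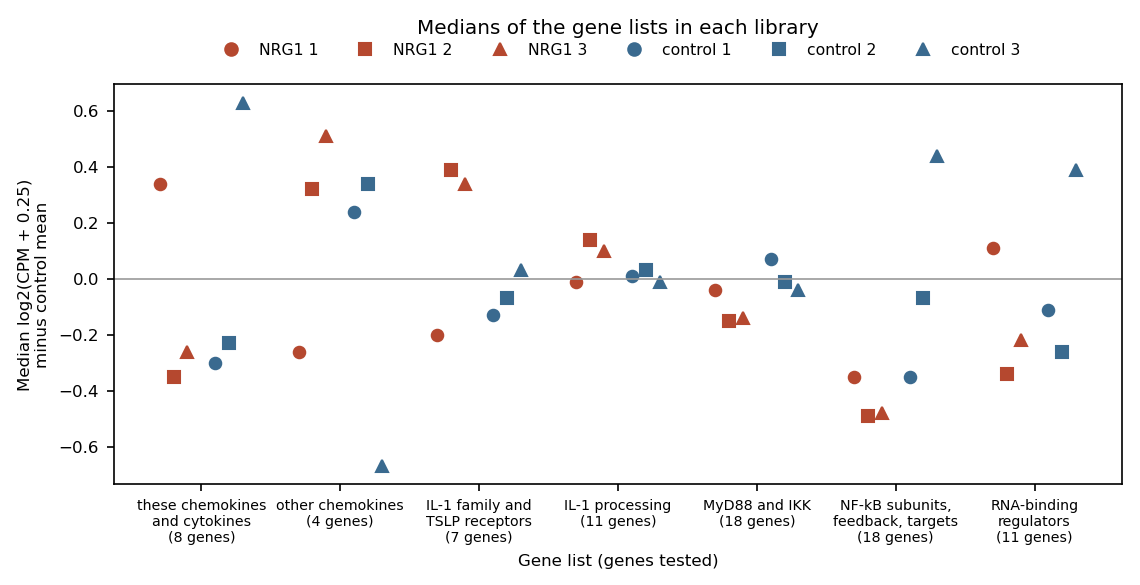
Median over tested genes of log2(CPM + 0.25) minus the control mean (vertical axis) for the 8 tested chemokines and cytokines and for 6 gene lists, by library. Control 3 is highest for the chemokines and cytokines, the NF-κB list and the RNA-binding regulators, while NRG1 1 is second for the chemokines and cytokines at 0.34 and at -0.35 for the NF-κB list.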

How the data were processed

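Libraries from polyA RNA (3 NRG1, 3 control) were made, per the labels' protocols, with TruSeq reagents, and titles gave the group and number of each. The authors deposited expected counts, which are not normalized, for 57736 genes; tools in the submitters' processing notes, whose roles are not stated there, are RSEM 1.3.0, STAR 2.5.3a, MultiQC 0.9 and FastQC 0.11.3, with build hg19. Which annotation was counted is not given here. A second deposited table held log2 values, equal within 1e-09 to TMM-scaled log2 CPM at a prior count of 0.25, for 8 of the 10 genes among 14759. 

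After rounding the expected counts, the test was run in R 4.3.3 with edgeR 4.0.16 (TMM, filterByExpr, quasi-likelihood test with the version 4 dispersion method, Benjamini-Hochberg over 15421 genes). Fold changes are NRG1 over control, and intervals come from the SE, taken as the log2 fold change over the root of F. A gene at 1 CPM rested on about 10 counts per library, so counting error is large for the chemokines. Alternatives used DESeq2 1.42.0, limma 3.58.1, other scalings and filters, a replicate block and left-out libraries. Symbols were matched on identifiers; exon lengths came from GENCODE 29 and promoters and gene order from RefSeq. Promoter stretches were aligned end to end with Biopython 1.88.

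The members and gene lists were chosen with earlier results of these data known. The 8 lists held 111 entries, 108 of them in the table and 73 tested. The rule named all members, the 3 genes of each list with the lowest p, and the 5 genes most alike; genes outside that rule are marked in the text.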

Additional observations from a re-analysis of the deposited data

How the results depend on the processing

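The number of genes past the threshold was 1 in the main analysis. It was 209 with DESeq2, 21 with no low-count filter, 2 in limma-trend on log2(CPM + 1), on log2(CPM + 0.25) and in limma-voom without rounding, 2 with the replicate number as a block, and 1515 without control 3 and NRG1 1. Leaving out 1 library gave 1 to 37 genes, the most without NRG1 1. Of the chemokines and cytokines, 0 were called in every setting except without control 3 and NRG1 1, where 1 was (IL1RN). Leaving out 1 library gave 0 called. The labels do not say whether libraries of the same replicate number were paired. Deviations of equal numbers correlated at 0.02, 0.12 and -0.08, and those of unequal numbers at -0.18 to 0.16. With so few libraries, of which control 3 and NRG1 1 stood apart, these values cannot decide it. The block called none of the 10 genes. IL1RN, IL1A, CXCL3 and CXCL8 kept their direction under every alternative scaling, filter and tool; IL1RN ran from 0.56 to 1.31 over all settings.

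Directions near 0 turned, and so did those of CXCL3 and CXCL8, at -1.57 and -1.08 in the main fit, without control 3. CXCL1 was 0.03 in limma-trend with a pseudocount of 1, 0.09 with 0.25 and 0.10 in limma-voom, and CXCL2 was 0.07, 0.12 and 0.09; CXCL2 was 0.04 with the replicate block. IL1B was -0.01 with library totals alone and with no filter. Leaving out single libraries moved CXCL1 from -0.58 to 0.76, CXCL2 from -0.90 to 1.03, CXCL3 from -2.01 to 0.13, CXCL8 from -2.85 to 0.49, IL1B from -0.21 to 0.25 and TSLP from -0.29 to 0.98. Without control 3 and NRG1 1, CXCL1 was 0.40, CXCL2 0.27, CXCL3 0.04, IL1B -0.12 and TSLP -0.25. The cause was not tested. CCL20 and IL36G entered only the setting with no filter, at -0.71 and 0.66 (adjusted p = 0.711 and 0.834 in edgeR). At a few counts per library, moderate changes in the chemokines could be missed.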
